A study of Homo sapiens with 6 samples.

Results

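The transcripts of 10 DNA replication and repair enzymes that carry an iron-sulfur cluster were measured in xenograft tumors of mice given an oral iron chelator. They were the primase subunit PRIM2, the DNA polymerases POLE and POLD1, the nuclease-helicase DNA2, the helicases RTEL1, DDX11, BRIP1 and ERCC2, and the base excision glycosylases NTHL1 and MUTYH. Members were chosen by gene name on the array, as enzymes of DNA metabolism known to bind such a cluster. The rule used no measured value, but earlier results of these data were known when the choice was made. The members had 16 probes, all of which passed the detection filter, of 31771 probes tested for 23779 gene names.

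BxPC-3, an established line of human pancreatic adenocarcinoma epithelial cells, was grown under the skin of female BALB/c nu/nu mice, which were aged 8 to 10 weeks at the start. Mice received either vehicle (saline) or 200 mg/kg deferasirox (DFX) by gavage on 3 days a week for 21 days, starting once tumors had reached 150 mm3. RNA from 3 control and 3 DFX tumors was hybridised to 6 one-color arrays, 1 tumor to an array. Nude mice lack a thymus and its T cells, every tumor came from 1 cell line, and the excised tissue could hold mouse vessels, stroma and blood.

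Iron-sulfur clusters are built in mitochondria and, for proteins of the cytosol and nucleus, on a cytosolic scaffold from which a targeting complex containing CIAO1, MMS19 and FAM96B (CIAO2B) passes them to the finished polypeptide. The enzymes studied here use the cluster to hold a fold, to bind DNA or to keep a polymerase complex together. Loss of iron can therefore leave such a protein without its cluster after translation. The arrays measured transcript abundance and gave no value for protein, cluster occupancy or enzyme activity.

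No member passed the threshold of an adjusted p of 0.05 in limma, and their Benjamini-Hochberg adjusted p-values lay between 0.527 and 0.993. The same was true of every probe tested in this fit, where the lowest adjusted p was 0.0673. At an unadjusted limma p under 0.05, RTEL1 was higher in DFX tumors, and 1 of 2 ERCC2 probes and 1 of 3 PRIM2 probes were lower. That made 3 of 16 member probes, beside 8.41% of all probes tested (3.46% higher and 4.95% lower). For a single probe, an exact two-sided permutation test of 3 tumors against 3 cannot give less than p = 0.1. Counted by the brightest probe of each gene, 2 of 10 members met this threshold (RTEL1 higher, ERCC2 lower), beside 7.91% of all genes (3.63% higher and 4.29% lower). Counted by any probe 3 of 10 did, beside 10.6%. The lower calls made up 58.8% of all unadjusted calls after quantile normalization, 42.8% after scaling to the 75th percentile and 47.1% after scaling to the median, so the balance of directions on the array depended on the scaling.

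By the brightest probe, the median log2 difference of the 10 genes was 0.03, with 7 genes above 0 and 3 below. Over all genes the median was -0.01, with 47.6% above 0 and 52.4% below. When arrays were scaled to their medians, the members' median turned to -0.0069. Without regard to sign, the median difference was 0.14 for the members and 0.15 for all genes. The 3 control values and the 3 DFX values did not overlap for 5 of 16 member probes, 1 higher (RTEL1) and 4 lower (DNA2, ERCC2 probe 2 and PRIM2 probes 1 and 2). Over all tested probes 15.5% did not overlap (6.33% higher and 9.15% lower). Counted by the brightest probe, 3 of 10 members did not overlap, beside 15.4% of all genes.

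**Figure D1:**
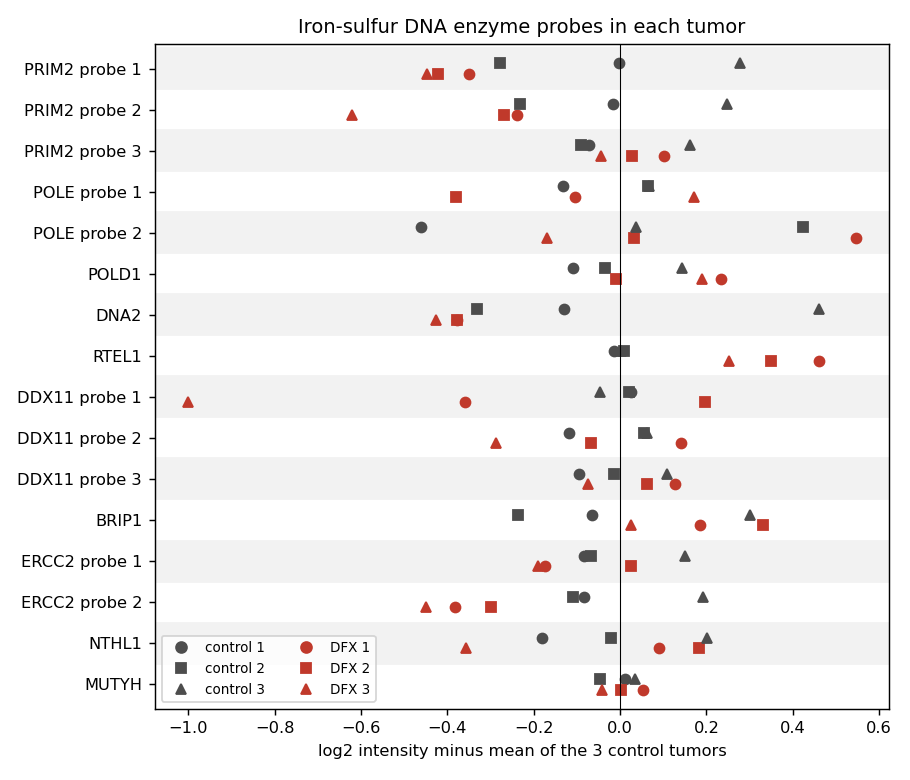
Normalized log2 intensity of each of the 16 member probes in each tumor, drawn as the deviation from the mean of the 3 control tumors. Dark points are control and red points DFX tumors, and circles, squares and triangles stand for tumors 1, 2 and 3 of a group, which are not paired. For RTEL1 all 3 DFX tumors lie to the right of the control tumors.

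The replication enzymes come first. PRIM2 is the large subunit of primase, which lays the RNA primers from which DNA polymerase alpha extends, and its cluster lies in the domain that works with the catalytic subunit PRIM1 during primer synthesis. Its 3 probes gave unlike estimates, a difference that the permutation test given below did not establish. The sequences of the 2 probes that were lower are shown because they read separate stretches of the transcript. The capitals mark a stop triplet at the end of a reading frame that is otherwise open, so probe 2 reads the last bases before the stop under that frame. Both are written 5′ to 3′ in the sense of the transcript.
PRIM2 probe 1: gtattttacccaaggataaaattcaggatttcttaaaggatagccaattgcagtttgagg
PRIM2 probe 2: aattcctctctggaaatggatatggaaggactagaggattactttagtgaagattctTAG

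In the array annotation (hg19), PRIM2 probe 1 lies at chr6:57190782-57190841, probe 2 at chr6:57512643-57512702 and probe 3 at chr6:57513196-57513255, all on the plus strand. Probe 1 read 6.05, 5.77 and 6.33 (log2 intensity) in control tumors 1 to 3 and 5.70, 5.63 and 5.60 in DFX tumors 1 to 3. The groups did not overlap, although control 2 and DFX 1 differed by only 0.073. The means were 6.05 ± 0.28 (SD, n = 3) and 5.64 ± 0.050, a log2 difference of -0.41 (SE 0.16), which corresponds to -24.5% in linear signal. The limma p was 0.0445 unadjusted and 0.585 after Benjamini-Hochberg adjustment. Without control 3 the difference was -0.27 (unadjusted limma p of 0.0958), and leaving out control 1, DFX 1, DFX 2 or DFX 3 also ended the unadjusted call, at p of 0.0925, 0.0795, 0.0980 and 0.102 in limma.

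PRIM2 probe 2 read 6.86, 6.65 and 7.13 in control tumors and 6.64, 6.61 and 6.26 in DFX tumors. The groups were separated by 0.0054 only, between control 2 and DFX 1. The log2 difference was -0.38 (SE 0.18, 95% interval -0.81 to 0.054, adjusted p = 0.626 in limma), and it reached an unadjusted limma p of 0.0435, at -0.49, without control 2. Probe 3, the brightest of the PRIM2 probes, read 9.58, 9.56 and 9.82 in control tumors and 9.76, 9.68 and 9.61 in DFX tumors. These values overlapped fully, with a difference of 0.03 (SE 0.12, 95% interval -0.26 to 0.32) whose sign turned after median scaling (-0.0082).

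The difference in response between PRIM2 probes was tested directly. The difference of probe 3 minus probe 1 moved by 0.43 between the groups without overlap, and that of probe 3 minus probe 2 by 0.40. Each gave p = 0.1, the smallest value that the exact two-sided permutation test allows here, and 0.267 after adjustment over the 8 pairs of probes compared within genes. Probes 1 and 2 did not differ in their response beyond the spread (-0.03, exact permutation p = 0.9). Whether these probes read different transcripts of PRIM2 was not tested. RefSeq also holds a pseudogene, PRIM2BP, and the array annotation assigns none of the 3 probes to it.

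POLE is the catalytic subunit of DNA polymerase epsilon, which copies the leading strand, and POLD1 is that of DNA polymerase delta, which copies the lagging strand. POLE probe 1 (chr12:133233948-133234007, minus strand, hg19) was dim, well above background in all 3 control tumors and in 2 DFX tumors. It read 4.93, 5.12 and 5.12 in control tumors and 4.95, 4.68 and 5.23 in DFX tumors. The highest and the lowest value both belonged to DFX tumors, and the difference of -0.10 (SE 0.17, 95% interval -0.51 to 0.30) lost its sign after scaling to the 75th percentile (0.00033).

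POLE probe 2 (chr12:133202232-133202291, minus strand) read 6.20, 7.09 and 6.70 in control tumors and 7.21, 6.69 and 6.49 in DFX tumors. Control 1 was the lowest and DFX 1 the highest, and the remaining 4 tumors were mixed. The difference was 0.14 (SE 0.29, 95% interval -0.56 to 0.83, adjusted p = 0.908 in limma), the widest interval among the members apart from DDX11 probe 1.

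POLD1 had 1 probe (chr19:50921206-50921265, plus strand). It read 11.31, 11.38 and 11.56 in control tumors and 11.65, 11.41 and 11.61 in DFX tumors. The groups overlapped, with a difference of 0.14 (SE 0.13, 95% interval -0.17 to 0.44, adjusted p = 0.769 in limma).

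DNA2 cuts the flaps left when a polymerase displaces the previous Okazaki fragment and resects broken DNA ends. Its probe (chr10:70174746-70174805, minus strand) read 6.19, 5.99 and 6.78 in control tumors and 5.94, 5.94 and 5.89 in DFX tumors. All 3 DFX tumors lay below the lowest control, by 0.045 at the nearest. The control tumors were far more spread (6.32 ± 0.41, SD, n = 3) than the DFX tumors (5.93 ± 0.028). The difference of -0.39 (SE 0.21, 95% interval -0.92 to 0.13) had an adjusted limma p of 0.660, was -0.16 without control 3, and reached an unadjusted limma p of 0.0416, at -0.56, without control 2.

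RTEL1 unwinds telomere loops and other DNA structures and limits recombination. Its probe (chr20:62327408-62327467, plus strand) read 9.97, 9.99 and 9.99 in control tumors and 10.45, 10.33 and 10.24 in DFX tumors. Every DFX tumor lay above every control, with 0.24 between the nearest values. The means were 9.98 ± 0.012 (SD, n = 3) and 10.34 ± 0.11, a log2 difference of 0.35 (SE 0.10, 95% interval 0.10 to 0.61) or a signal 27.8% higher. The limma p was 0.0140 unadjusted and 0.527 after Benjamini-Hochberg adjustment, and without DFX 1 the difference was 0.30 (unadjusted limma p of 0.0606).

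RefSeq lists a readthrough transcript that joins RTEL1 to the neighbouring gene TNFRSF6B, a decoy receptor for death ligands. The 2 TNFRSF6B probes, looked at after the RTEL1 values were seen, had overlapping groups with differences of 0.25 and -0.02 (adjusted p of 0.815 and 0.990 in limma). The brighter read 10.58, 11.56 and 11.45 in control tumors and 11.40, 11.56 and 11.38 in DFX tumors, so control 1 alone stood low. The neighbours ARFRP1 and STMN3, looked at together with TNFRSF6B, had no called probe. The brightest ARFRP1 probe was higher in DFX tumors without overlap (0.17). Its other probes (-0.16, 0.080 and -0.041) and the STMN3 probe (-0.38) had overlapping groups.

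DDX11 is a helicase of sister chromatid cohesion and fork protection. The transcripts that the array annotation lists for its probes included, by their RefSeq names, DDX12P, a transcribed pseudogene (probes 1 and 3), and LOC642846, a non-coding RNA (probe 2), so signal from DDX11 and from these copies cannot be told apart. Probe 1 (chr12:31255894-31255953, plus strand) read 5.44, 5.43 and 5.37 in control tumors and 5.05, 5.61 and 4.41 in DFX tumors. The DFX tumors spread on both sides of the controls, with an SD of 0.60 against 0.040. The difference was -0.39 (SE 0.30, 95% interval -1.11 to 0.34), and without DFX 2 it was -0.68 (unadjusted limma p of 0.0250).

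DDX11 probe 2 (chr12:31257193-31257252) read 9.24, 9.41 and 9.42 in control tumors and 9.50, 9.29 and 9.07 in DFX tumors, and probe 3 (chr12:31257493-31257552) read 10.71, 10.79 and 10.91, and 10.93, 10.87 and 10.73. On both probes DFX 1 was the highest of the 6 tumors and DFX 3 the lowest of the DFX tumors, so the groups overlapped. The differences were -0.07 (SE 0.14) and 0.04 (SE 0.11), and that of probe 3 turned to -0.0056 after median scaling. No pair of DDX11 probes differed in response beyond the spread (exact permutation p from 0.3 to 0.4).

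BRIP1, also called FANCJ, is a helicase that binds BRCA1 and acts in the repair of interstrand crosslinks. Its probe (chr17:59760908-59760967, minus strand) read 6.25, 6.08 and 6.62 in control tumors and 6.50, 6.65 and 6.34 in DFX tumors. DFX 2 and control 3 were nearly level at the top and the groups overlapped. The difference was 0.18 (SE 0.17, 95% interval -0.24 to 0.61, adjusted p = 0.784 in limma).

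ERCC2, also called XPD, is the helicase of TFIIH, a complex that opens DNA at promoters and around bulky lesions in nucleotide excision repair. Its 2 probes gave unlike estimates, a difference that the permutation test given below did not establish. Both are shown, 5′ to 3′ in the sense of the transcript and without capitals because neither holds a marked feature.
ERCC2 probe 1: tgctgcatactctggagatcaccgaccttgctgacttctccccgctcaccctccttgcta
ERCC2 probe 2: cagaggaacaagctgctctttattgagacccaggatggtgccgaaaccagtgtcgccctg

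ERCC2 probe 1 (chr19:45864815-45864874, minus strand, hg19) lies upstream of probe 2 (chr19:45856515-45856574) in the direction of transcription. Probe 2, the brighter, read 8.08, 8.05 and 8.35 in control tumors and 7.78, 7.86 and 7.71 in DFX tumors. All DFX tumors were lower, with 0.19 between the nearest values. The means were 8.16 ± 0.17 (SD, n = 3) and 7.78 ± 0.075, a difference of -0.38 (SE 0.13, 95% interval -0.68 to -0.071), or -23.0% in linear signal. The limma p was 0.0235 unadjusted and 0.554 after Benjamini-Hochberg adjustment. Leaving out DFX 1 (-0.37, unadjusted limma p of 0.0652) or DFX 3 (-0.34, unadjusted limma p of 0.0655) ended the unadjusted call.

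ERCC2 probe 1 read 7.80, 7.82 and 8.04 in control tumors and 7.71, 7.91 and 7.70 in DFX tumors. DFX 2 stood above 2 of the 3 controls, so the groups overlapped, and the difference was -0.11 (SE 0.12, 95% interval -0.41 to 0.19, adjusted p = 0.813 in limma). The difference of probe 2 minus probe 1 moved by -0.26 between the groups (exact two-sided permutation p = 0.1, 0.267 adjusted over 8 pairs). The GC content of the 2 probes was 56.7% and 55.0%.

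NTHL1 removes oxidized pyrimidines from DNA and MUTYH removes adenine paired with oxidized guanine. The NTHL1 probe maps to chr16:2093705-2094667 (minus strand), a stretch longer than the 60 bases of the probe, so it crosses a splice junction. It read 9.24, 9.40 and 9.62 in control tumors and 9.51, 9.60 and 9.06 in DFX tumors. DFX 3 was the lowest and control 3 the highest, with a difference of -0.03 (SE 0.19, 95% interval -0.48 to 0.43).

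MUTYH (chr1:45794999-45795058, minus strand) spanned a narrow range over the 6 tumors. It read 11.74, 11.68 and 11.76 in control tumors and 11.78, 11.73 and 11.69 in DFX tumors. The SDs were 0.041 and 0.048, and the difference of 0.0042 (SE 0.096) had a 95% interval of -0.23 to 0.24. Its sign turned to -0.012 after scaling to the 75th percentile and to -0.032 after median scaling.

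**Figure D2:**
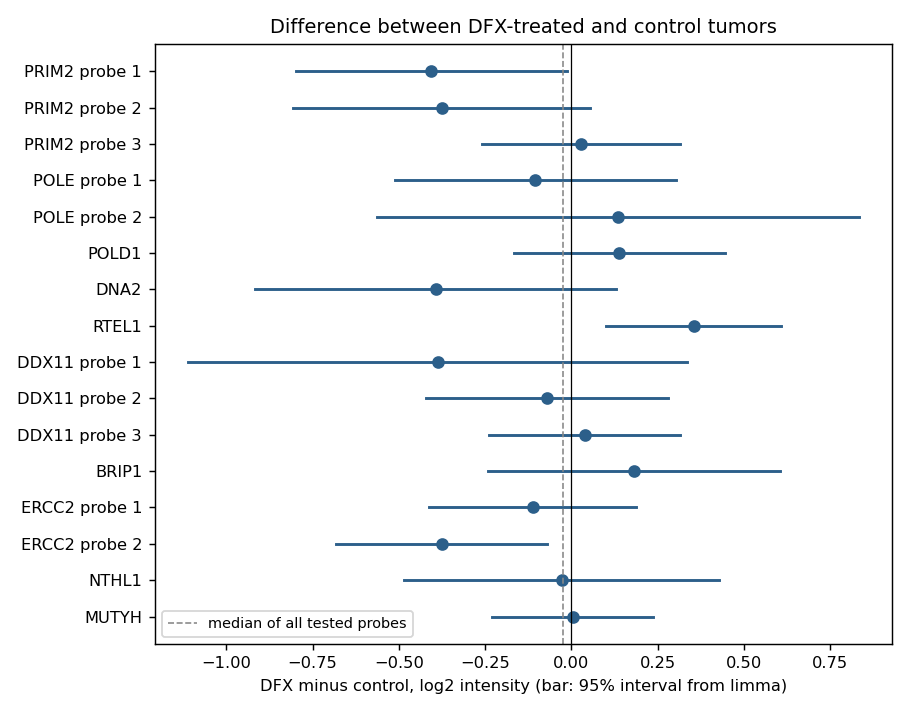
Difference between DFX and control tumors in log2 intensity for each member probe (point) with its 95% interval from limma (bar); the dashed line is the median of all tested probes. The intervals of RTEL1, ERCC2 probe 2 and PRIM2 probe 1 lie to one side of 0, and the other 13 include it.

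Within each treatment group the members varied from tumor to tumor. The median deviation of the 10 genes from their control mean was -0.089, -0.039 and 0.15 in control tumors 1 to 3 and 0.11, 0.03 and -0.058 in DFX tumors 1 to 3. Control 3 and DFX 1 were highest and control 1 and DFX 3 lowest, so each treatment group held tumors from both ends. Control 3 was the highest control on 13 of 16 member probes, beside 39.4% of all tested probes, and DFX 3 was the lowest DFX tumor on 14 of 16, beside 38.5%. The member probes share their tumors, so these counts describe 6 tumors and not 16 separate observations.

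A list of 16 proliferation genes was laid beside the members because enzymes of replication are transcribed mainly in dividing cells. Its median deviations were -0.28, -0.037 and 0.33 in control tumors 1 to 3 and 0.19, 0.12 and -0.13 in DFX tumors 1 to 3, which put the 6 tumors in the same order as the members did. The pattern was not particular to these 2 lists. The partner genes described below were also highest in control 3 (0.14) and low in control 1 (-0.072) and DFX 3 (-0.090). The cluster assembly genes were highest in DFX 2 (0.11) and lowest in DFX 3 (-0.074). The medians over all genes stayed between -0.018 and 0.012. Between the treatments the proliferation list had a median difference of 0.03, with 9 genes above 0 and 7 below and none called by its brightest probe, beside 7.91% of all genes. The part of proliferation in the members' values was not tested.

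**Figure D3:**
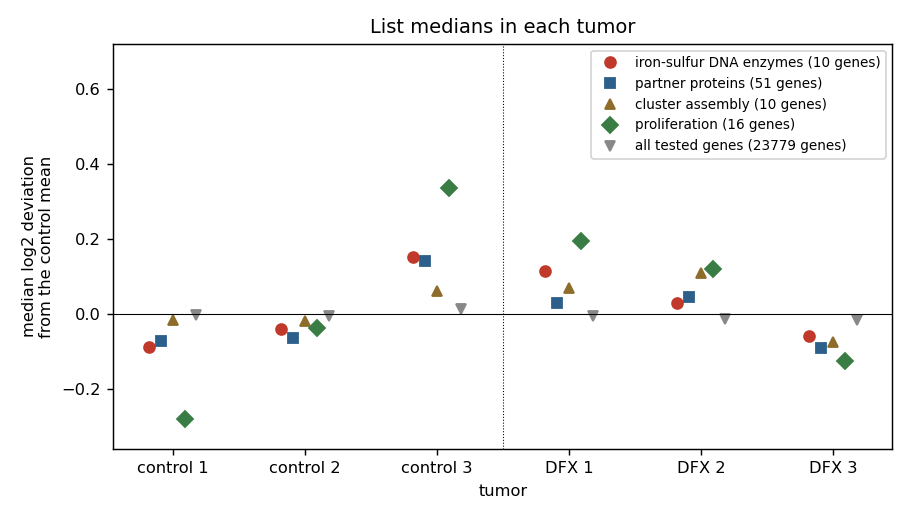
Median log2 deviation from the control mean over each gene list in each of the 6 tumors. The iron-sulfur enzymes (circles) and the proliferation genes (diamonds) are both highest in control 3 and DFX 1 and both low in control 1 and DFX 3, while the median of all genes stays near 0. The partner proteins (squares) are also highest in control 3 and low in control 1 and DFX 3.

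The proteins that work in complex or in pathway with the 10 enzymes were described from a list of 52 partners, 51 of which had a tested probe. Of these, 24 were above 0 and 27 below, with a median of -0.0087. By the brightest probe 2 of 51 partners (3.92%) met an unadjusted limma p under 0.05, beside 7.91% of all genes, and both were higher in DFX tumors. None met the adjusted threshold in limma. The groups did not overlap for 8 of 51 partners, beside 15.4% of all genes, 6 of them higher in DFX tumors (FANCD2, POT1, POLA1, POLE3, SLX4 and MBD4) and 2 lower (GTF2H4 and ERCC3).

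FANCD2, the Fanconi anemia protein that is ubiquitinated at stalled forks, was 1 of them. It read 7.88, 7.79 and 8.08 in control tumors and 8.82, 8.64 and 8.63 in DFX tumors. The groups were far apart, with a log2 difference of 0.78 (SE 0.12, adjusted p = 0.503 in limma). Its 2 dimmer probes differed by 0.50 and 0.49 in the same direction, at unadjusted limma p of 0.0815 and 0.310.

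The other was POT1, which binds the single-stranded end of telomeres, where RTEL1 also acts. It read 9.40, 9.49 and 9.18 in control tumors and 10.10, 9.71 and 9.79 in DFX tumors. All DFX tumors were higher, by a log2 difference of 0.51 (SE 0.15, adjusted p = 0.527 in limma). The remaining telomere partners were SLX4 at 0.20, TERF1 at -0.0087 and TERF2 at -0.24, none of them called.

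Of the TFIIH subunits around ERCC2, 2 of 8 were above 0 and 6 below, with a median of -0.075, beside 52.4% of all genes below 0 and a median of -0.01. None was called, and this count was not tested. GTF2H4 had the most negative difference, with values of 6.75, 6.79 and 6.92 in control tumors and 6.66, 6.57 and 6.19 in DFX tumors, which did not overlap (difference -0.35, SE 0.16, adjusted p = 0.610 in limma). The helicase ERCC3 differed by -0.13 (SE 0.097, adjusted p = 0.728 in limma).

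The other subunits of the replicative polymerases had differences on both sides of 0 within each enzyme, and none was called. In polymerase delta the log2 differences were -0.39 for POLD2, 0.083 for POLD3 and 0.11 for POLD4. In polymerase epsilon they were -0.27 for POLE2, 0.20 for POLE3 and 0.054 for POLE4. In the polymerase alpha-primase complex, where PRIM2 belongs, they were 0.15 for POLA1, -0.14 for POLA2 and -0.22 for PRIM1. REV3L, the catalytic subunit of the translesion polymerase zeta and a further cluster-binding polymerase, read 9.99, 9.85 and 10.03 in control tumors and 9.63, 9.80 and 9.76 in DFX tumors. All its DFX values were lower (difference -0.23, SE 0.11), with an adjusted limma p of 0.632.

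**Figure D4:**
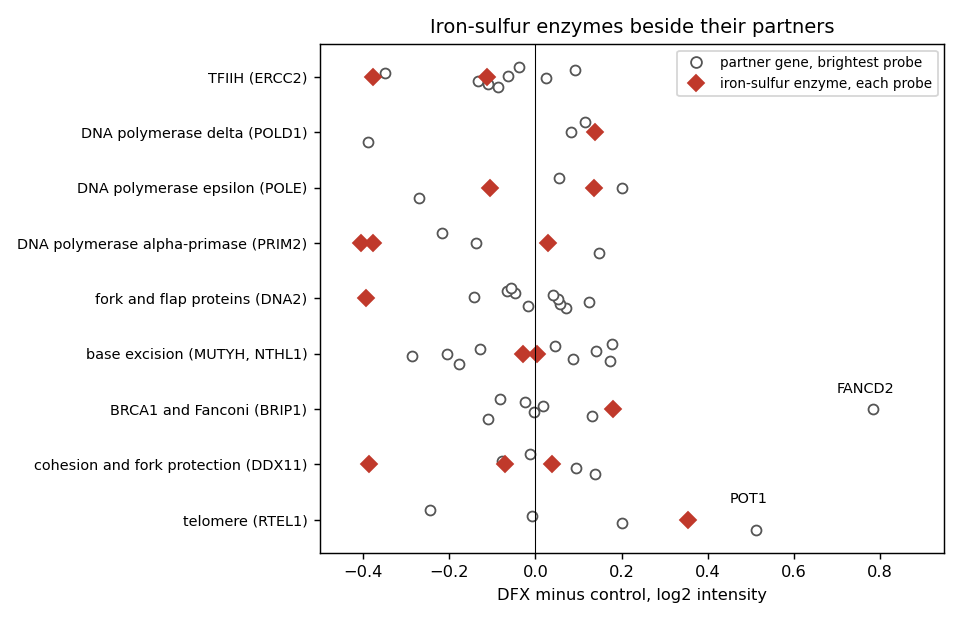
Difference between DFX and control tumors in log2 intensity for the brightest probe of each partner gene (open circles), grouped by the iron-sulfur enzyme it works with, and for each probe of that enzyme (diamonds). FANCD2 and POT1 lie farthest to the right, at 0.78 and 0.51, and the other partners lie between -0.39 and 0.20.

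The machinery that builds and delivers cytosolic clusters was measured through 10 of 11 listed genes. None was called by its brightest probe in limma, at adjusted p-values of 0.752 and above, beside 7.91% of all genes at an unadjusted p under 0.05. The differences ran from -0.17 (FAM96A, which hands clusters to iron regulatory protein) to 0.20 (NDOR1, the reductase that feeds electrons to cluster assembly), with 7 above 0, 3 below and a median of 0.042. With all probes of each gene averaged the median was -0.084.

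The promoters were read for the E2F-type octamers TTTCCCGC, TTTCGCGC, TTTGCCGC and TTTGGCGC on both strands, from 250 bases before to 50 after each RefSeq start (GRCh38.p14). These letters were found for 2 of 9 members with an entry, POLE (TTTGGCGC) and DDX11 (TTTCCCGC), which is 22.2%. They were found for 21.4% of 42 partners, 58.3% of 12 proliferation genes and 3.31% of all 35116 promoters in the table. The sets are unlike, since the full set also covers genes that were not tested here. The median GC content was 61.7% for members, 65.3% for partners, 63.8% for proliferation genes and 58.0% for all promoters. Whether GC content accounts for the shares was not tested. DNA2 had no entry. A match describes letters in this window and not a binding site.

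The tissue showed its labelled origin, with all 7 epithelial markers well above background on every array. Their summed linear intensity was 627330 to 629457 in control and 641271 to 655173 in DFX tumors. KRT19 weighed most in these sums, at 18.54, 18.44 and 18.44 in control tumors and 18.44, 18.50 and 18.54 in DFX tumors. Quantile normalization gives probes of equal rank the same value, so the sums say little about the amount of epithelium. Of the 7 markers, 6 were above 0 and KRT7 was below (-0.17). EPCAM, KRT8 and KRT18 (3 of 7) were higher at an unadjusted limma p under 0.05. Of the red blood cell markers 2 of 5 tested were lower in DFX tumors by their brightest probe, HBA2 by a log2 difference of -1.93 and HBD of -1.12, with sums of 6762 to 8037 against 3134 to 3292. Of the 6 fibroblast markers LUM was called higher (0.87) and DCN lower (-1.30) in limma. Of the leukocyte markers 0 of 4 was called. Of the 4 endothelial markers PECAM1 was called higher (1.27). The 3 others lay below 0 and were not called (VWF -0.58, KDR -0.29 and CDH5 -0.091). PDGFRB (fibroblast), CSF1R (leukocyte) and KDR (endothelium) stayed near background on all 6 arrays, never well above it. The summed proliferation markers overlapped, at 37463 to 55390 in control and 40767 to 51160 in DFX tumors. The array probes were human, while blood, vessels and stroma in these tumors could be of the mouse. Whether the signals of those markers came from mouse RNA or from BxPC-3 cells cannot be told apart. They are therefore not a measure of host cell types. The part of these markers in the members' values was not tested, and in whole tumors fewer cells of a type and less RNA per cell cannot be told apart.

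The slide position of each array was read from the name of its scanner output. By these names all 6 arrays lay on 1 slide, with the control tumors in the first row and the DFX tumors in the second. Row and treatment therefore cannot be told apart. Slide columns 2 and 4 held a tumor of each group. Within them the log2 difference was 0.36 and 0.25 for RTEL1, -0.22 and -0.64 for ERCC2 probe 2, and -0.42 and -0.72 for PRIM2 probe 1, in the same direction as over all tumors. With slide column as a block none of the 3 kept an unadjusted limma p under 0.05 (0.254, 0.165 and 0.0768 in that order). That fit took its treatment difference only from columns 2 and 4, so control 2 and DFX 1 did not contribute to it.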

How the data were processed

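Agilent one-color human arrays were hybridised with RNA from 6 BxPC-3 tumors, 3 per group by the sample labels. The authors scanned the arrays and extracted the deposited processed signal intensity per spot with Feature Extraction (version 9.5.1.1 per the labels, 10.7.1.1 per the file headers), which had subtracted background. Per the study's methods, the authors took log2 values, normalized them by quantiles and kept non-control probes whose detection p-value was below 0.05 in every sample. The deposited table of normalized intensity from the authors served as an alternative.

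Here log2 processed signal of 58717 non-control spots was quantile-normalized, 1398 spot values with outlier flags were left out (none of a member), and spots were averaged per probe. The detection p-value in the deposited scanner files was taken to be the background test of the signal, which kept 31771 of 50599 probes. DFX was compared with control by limma 3.58.1 (R 4.3.3; lmFit and eBayes) and p-values were adjusted by Benjamini-Hochberg across the tested probes. A call means an unadjusted p under 0.05, since no probe passed the adjusted threshold in this fit, and fold changes are differences of log2 means. Gene names are those of the array design. Each gene of a list was read by its brightest probe, and every member probe was reported. Probes are numbered 5′ to 3′ along the gene, and their placement in exons or UTRs was not analysed here.

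Members and lists were chosen with earlier results of these data known. The rule for named genes took all members and, of each other list, the called genes or up to 3 with the largest change. Further subunits of the members' complexes, and genes whose groups did not overlap, were named after their values were seen. The labels do not tie tumors to individual mice, so p-values measure only the spread between these 3 and 3 tumors, and that number limits the precision. From 50.3% to 56.5% of probes were well above background per array and no spot was saturated. Correlations between arrays were 0.983 to 0.990 among controls, 0.984 to 0.987 among DFX tumors and 0.980 to 0.988 between them. Alternatives covered scaling, background correction, the dim-probe filter, flagged spots, blocks, array weights, a rank test and each tumor left out.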

Additional observations from a re-analysis of the deposited data

How the results depend on the processing

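No member passed the adjusted threshold of limma under any of 18 settings. Over all probes, 2 passed it after median scaling and 2 after normexp correction. Another 2 passed when only probes well above background on all arrays were tested, and 3 with array weights. RTEL1 stayed higher in all 18 (0.30 to 0.41) and ERCC2 probe 2 (-0.43 to -0.28) and PRIM2 probe 1 (-0.57 to -0.18) stayed lower, but the unadjusted call was lost in 2, 4 and 11 of them. The 3 member probes called became 0 with slide column as a block, 5 with the Kruskal-Wallis H test that replaced limma, and 0 to 5 when single tumors were left out (0 without DFX 1, 1 without DFX 3, 5 without control 2). Over all probes 2672 calls became 1419 with the column block, 4920 with the Kruskal-Wallis test and 1887 to 2714 without single tumors. Partner calls went from 2 to 1 with the column block, 8 with the Kruskal-Wallis test and 2 to 3 without single tumors. Assembly calls went from 0 to 1 with the Kruskal-Wallis test, and proliferation calls from 0 to 1 with normexp correction or array weights. With 3 against 3 tumors the Kruskal-Wallis p falls under 0.05 exactly where the groups do not overlap, so its counts are those of probes and genes without overlap. With the column block, only slide columns 2 and 4 informed the treatment difference. The cause of the changes outside the Kruskal-Wallis test was not tested.

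Replicate numbers did not pair the tumors (correlations of same-numbered deviations 0.027, 0.027 and 0.016), and the fit with the replicate number as a block called 1 member probe and 2415 probes.

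Without single tumors the medians ran from -0.014 to 0.10 for members, -0.063 to 0.093 for partners, 0.010 to 0.083 for assembly and -0.15 to 0.21 for proliferation. The assembly median was -0.084 with the probes of a gene averaged.

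Differences near 0 changed sign. MUTYH turned to -0.012 (75th percentile), -0.032 (median scaling), -0.0060 (deposited values) and -0.043 (column block). PRIM2 probe 3 turned to -0.0082 (median scaling) and -0.053 (column block), and PRIM2 to -0.25 with its probes averaged. DDX11 probe 3 turned to -0.0056 and -0.013 under the same settings and DDX11 to -0.14. With array weights DDX11 probe 2 was 0.015 and NTHL1 0.077, and POLE probe 1 was 0.00033 by the 75th percentile. Without single tumors the ranges were -0.020 to 0.028 (MUTYH), -0.016 to 0.11 (PRIM2 probe 3), -0.094 to 0.35 (POLE probe 2), -0.24 to 0.033 (POLE probe 1), -0.0082 to 0.095 (DDX11 probe 3), -0.18 to 0.037 (DDX11 probe 2) and -0.13 to 0.14 (NTHL1). ERCC2 was -0.24 with its probes averaged (unadjusted limma p of 0.0912) and -0.063 by probe 1, the brighter after normexp, which ended its unadjusted call in both.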

Other observations

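Among the partner, assembly and proliferation genes with several probes, 3 had a dimmer probe at an unadjusted limma p under 0.05 while the brightest was not called. These were MKI67, a nuclear antigen of dividing cells, at a log2 difference of 0.35 (p of 0.0399), NDOR1 at -0.43 (p of 0.0466) and TDG, a thymine glycosylase of base excision repair, at -0.42 (p of 0.0424), all from the limma fit over 6 tumors and none past adjustment. For NDOR1 and TDG the dimmer probe was opposite in sign to the brightest, which stood at 0.20 and 0.047. The brightest MKI67 probe stood at 0.21 and a further one at -0.16, neither called. Counted by any probe, 3 partner genes, 1 assembly gene and 1 proliferation gene were called, beside 10.6% of all genes.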
